A study of Saccharomyces cerevisiae with 18 samples.

Results

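The phosphate regulon of Saccharomyces cerevisiae was followed through 10 of its genes, chosen by name, with earlier results of these data known: PHO5, PHO3, PHO11, PHO12, PHO8, PHO84, PHO89, SPL2, VTC1 and VTC3. They are 10 of the 6465 gene windows counted in each library. Newly made and total mRNA had been measured by SLAM-seq, in which cells are fed 4-thiouracil (4tU) and its sites of incorporation are read as T-to-C changes. A read with at least 2 such changes is called labelled here and stands for new RNA, and all reads of a gene stand for total RNA. In strain RDY73 the bromodomain proteins Bdf1 and Bdf2 both carry a degron tag, through the alleles BDF1-3XV5-mAID-URA3 and, for the second, BDF2-3XV5-mAID-kanMX. OsTIR1, the plant protein that marks them for destruction when auxin (IAA) is present, comes from the GPD1 promoter (pGPD1-OsTIR1::HIS3). Strain RDY234 carries those same 3 alleles and in addition pBDF1-BDF1::TRP1, an untagged BDF1 copy. Each strain gave 3 libraries of an IAA group (1 mM IAA for 25 min, then 5 mM 4tU for 4 min), 3 of a DMSO group (no IAA, the same 4tU pulse) and 3 of a control group (neither IAA nor 4tU), which the labels call biological triplicates. All were grown in YPD, a rich medium, and all were mixed before RNA extraction with labelled Schizosaccharomyces pombe cells as a spike-in. No protein level was used here, and of the clones behind each strain the number is not given in the sources used here. Between the strains, the untagged copy and any other difference cannot be told apart.

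As background, the regulon answers to inorganic phosphate. In phosphate-rich medium the cyclin-dependent kinase Pho85 with its cyclin Pho80 phosphorylates the transcription factor Pho4, which then leaves the nucleus, and when phosphate is scarce the inhibitor Pho81 blocks the kinase and Pho4, with its partner Pho2, switches on acid phosphatases, high-affinity transporters and enzymes of polyphosphate storage. PHO5 is a classic model of how chromatin over a promoter is opened. PHO3 is the exception in the list: it encodes an acid phosphatase made constitutively, which responds to thiamine and not to phosphate.

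The genes lie on 7 chromosomes (build R64). PHO5 (YBR093C, chromosome II 429548 to 430951, minus strand) and PHO3 (YBR092C, chromosome II 427698 to 429101, minus strand) are tandem neighbours with 446 bases between them. PHO11 (YAR071W, chromosome I 225460 to 226863, plus strand), PHO12 (YHR215W, chromosome VIII 552099 to 553502, plus strand) and PHO89 (YBR296C, chromosome II 796798 to 798522, minus strand) lie close to chromosome ends, 3.4 kb, 9.1 kb and 14.7 kb from the nearer one. PHO84 (YML123C, chromosome XIII 24037 to 25800, minus strand) is 24.0 kb from its chromosome end, and PHO8 (YDR481C, chromosome IV 1418550 to 1420250, minus strand), SPL2 (YHR136C, chromosome VIII 374654 to 375100, minus strand), VTC1 (YER072W, chromosome V 302806 to 303195, plus strand) and VTC3 (YPL019C, chromosome XVI 514511 to 517018, minus strand) are 111.7 kb or farther from theirs.

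Pho4 is known to bind CACGTG and, more weakly, CACGTT. Both were searched in the 500 bases that run from 600 to 101 bases before each start codon, CACGTT on both strands (its reverse complement is AACGTG), while CACGTG reads the same on both. CACGTG was present in 9 of the 10 genes, all but PHO3, against 401 of the 5999 windows of this kind in the genome (6.68%). CACGTT was present in 7 of the 10, against 973 of 5999 (16.2%). PHO84, SPL2 and VTC3 held 2 copies of CACGTG and the other 6 held 1. Stretches of 200 bases are shown because they carry both motifs and because the genes behind them stood apart in the results below: PHO12 and PHO11 for their low level in RDY73, PHO84 for its change in total RNA with IAA in RDY73, the smallest of the 10 on the S. pombe scale and the largest under relative scaling, and PHO5 as the classic gene. Capitals mark these motifs. The sequences are from the RefSeq genome of build R64, on the strand of the gene, 5′ to 3′.
PHO12 (chrVIII:551669-551868, plus strand): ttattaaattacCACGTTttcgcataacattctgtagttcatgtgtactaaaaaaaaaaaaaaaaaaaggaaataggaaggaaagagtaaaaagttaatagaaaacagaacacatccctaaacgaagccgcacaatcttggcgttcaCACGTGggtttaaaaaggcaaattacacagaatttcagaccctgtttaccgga
PHO11 (chrI:225030-225229, plus strand): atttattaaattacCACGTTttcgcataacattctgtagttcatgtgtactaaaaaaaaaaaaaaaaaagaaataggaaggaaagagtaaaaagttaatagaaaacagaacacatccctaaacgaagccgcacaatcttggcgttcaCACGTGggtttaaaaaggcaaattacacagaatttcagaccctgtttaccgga
PHO84 (chrXIII:26051-26250, minus strand): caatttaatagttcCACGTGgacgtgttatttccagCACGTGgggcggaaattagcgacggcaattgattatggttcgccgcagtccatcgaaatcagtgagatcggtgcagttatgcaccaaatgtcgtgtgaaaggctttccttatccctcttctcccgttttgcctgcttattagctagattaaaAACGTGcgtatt
PHO5 (chrII:431152-431351, minus strand): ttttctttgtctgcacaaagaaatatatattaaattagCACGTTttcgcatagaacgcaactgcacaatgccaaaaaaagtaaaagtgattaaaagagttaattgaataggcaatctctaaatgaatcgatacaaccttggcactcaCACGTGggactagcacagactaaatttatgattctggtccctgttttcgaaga
Over the whole 500 bases PHO12 and PHO11 were 99.2% identical, while PHO5 and PHO3 were 48.4% identical. CACGTG began 283 bases before the start codon in both PHO12 and PHO11 and 253 bases before it in PHO5. In PHO84 the copies of CACGTG began 436 and 414 bases before it. A match is a run of letters, and binding of Pho4 was not measured here.

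**Figure D1:**
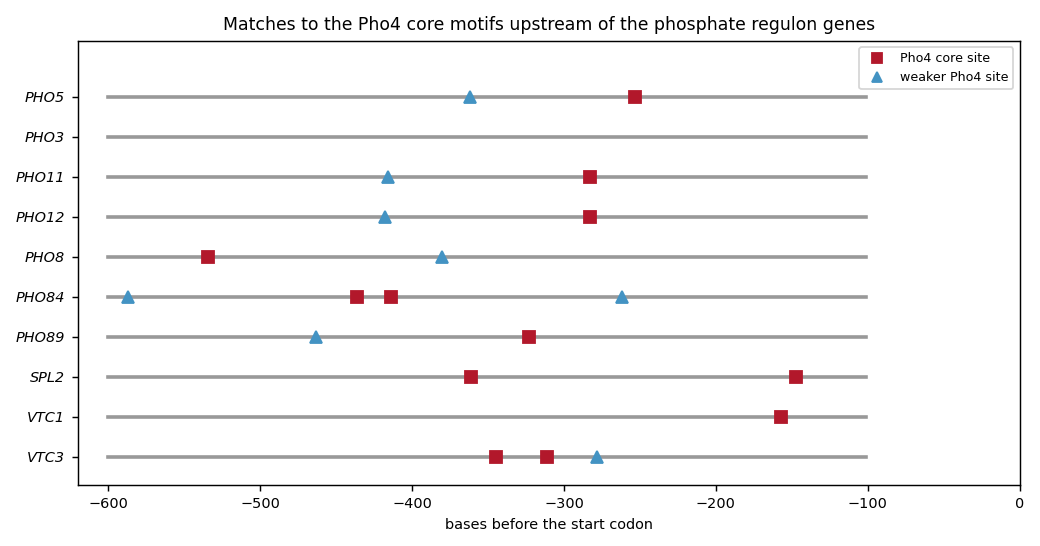
Matches to the Pho4 core motifs upstream of the 10 genes, with bases before the start codon on the horizontal axis. Grey bars are the window searched (600 to 101 bases before the start codon), squares are CACGTG, triangles are CACGTT on either strand, and the row of PHO3 holds no match.

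PHO11 and PHO12 share 1400 of 1404 coding bases (99.7%), so reads from inside their coding sequence can fail to tell them apart. In these 3′ libraries many reads fall near the end of the transcript, and the 250 bases after the stop codon, which the counting windows include, were 78.5% identical. Of all 100-base stretches of the PHO12 coding sequence, 75.2% were found unchanged in PHO11, and none of the stretches after the stop codon was. The reads that the files mark as multimapped were few: 5 of 1235 PHO11 reads (0.405%) and 14 of 9731 PHO12 reads (0.144%) over the 18 libraries, against 0.574% over all windows, and 0.102% to 0.926% over the 10 genes. Values of PHO11 and PHO12 are uncertain in so far as a read can match both genes equally well, and how the authors' counting placed such reads is not given in the sources used here. PHO12 had 5.84 ± 0.927 reads for each PHO11 read in RDY73 with IAA, 10.8 ± 3.35 with DMSO and 9.30 ± 2.58 in controls, and in RDY234 the ratio was 9.31 ± 3.13 with IAA, 7.37 ± 1.21 with DMSO and 7.52 ± 0.736 in controls (SD, n = 3, windows of equal length). A few windows overlap a neighbour: PHO3 shares bases with TIM12, PHO8 with CWC21 and PHO84 with YML122C on the same strand, and PHO8 lies antisense to DIG2, PHO84 to YNCM0001W and PHO89 to PCA1. Strand use in the counting is likewise unknown.

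Depth ranged between 4177363 and 8541751 S. cerevisiae reads over the 18 libraries, with 387855 to 792178 reads of S. pombe, and the 12 libraries with 4tU held 103348 to 574103 labelled S. cerevisiae reads. Values below are scaled reads, that is a gene's reads divided by the library's S. pombe reads of the same kind and multiplied by their mean over libraries. S. pombe cells were added by mass, so fewer yeast cells and less RNA per cell cannot be told apart in such a value. The results are therefore set beside relative scaling, where libraries were scaled over the S. cerevisiae genes (TMM) and a gene is set against its own transcriptome. BDF1, the engineered gene, had 747.6 ± 36.9 scaled total reads in RDY73 controls and 2398 ± 288 in RDY234 controls (SD, n = 3). The strain whose genotype holds the extra copy thus had more reads in the BDF1 window. The log2 change of RDY73 against RDY234 was −1.68 on this scale and −1.01 under relative scaling. Whether reads of the tagged allele fall in that window as those of the untagged copy do was not tested. Fitted changes are log2 values ± SE. They come from the quasi-likelihood test of edgeR, and p-values were adjusted by Benjamini-Hochberg across all tested genes, with 0.05 as the threshold for a call.

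New RNA of the regulon was lower with IAA than with DMSO in RDY73 on the S. pombe scale, and relative scaling turned this round or ended it for every gene called. The filter on low reads, at least 10 labelled reads in at least 3 of the 12 libraries with 4tU, was passed by 9 genes, of which PHO5 and PHO11 did so through RDY234 and had few reads in RDY73. Of the 9, 7 were lower and 0 higher, and of all 5195 tested genes 83.9% were lower and 0.385% higher. The median change was −1.03 over the 9 genes (−1.11 without PHO5 and PHO11) and −1.97 over all tested genes, and 8 of the 9 lay above the all-gene median. Under relative scaling 0 of the 9 were lower and 4 were higher, with a median of 0.60, against 11.5% lower and 16.3% higher of all tested genes and an all-gene median of −0.29.

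Among the secreted acid phosphatases, PHO3 and PHO12 had the lowest values. PHO3 had 5.11, 8.36 and 7.83 scaled labelled reads in RDY73 libraries A, B and C with IAA, against 22.1, 35.0 and 32.3 with DMSO. All of its IAA libraries lay far under all of its DMSO libraries, a change of −2.01 ± 0.39 (edgeR, adjusted p = 1.11e-06), with −0.32 under relative scaling (adjusted p = 0.578). PHO12, an acid phosphatase of the cell surface, had 2.04, 7.52 and 7.83 with IAA, against 23.2, 21.3 and 26.0 with DMSO. Its groups were as far apart, at −1.96 ± 0.41 (edgeR, adjusted p = 5.31e-06), with −0.29 under relative scaling (adjusted p = 0.651). PHO5, the main phosphate-repressible acid phosphatase, had 0, 7 and 3 labelled reads with IAA and 3, 7 and 2 with DMSO, before scaling. That is too few to tell the groups apart, so no fold change is given. With at least 1 conversion per read as the measure of new RNA, PHO5 passed at −1.37 (edgeR, adjusted p = 0.00298). PHO11 had 1 labelled read in each IAA library and 2, 3 and 0 in the DMSO libraries, so no fold change is given, and with at least 1 conversion per read it passed at −2.04 (edgeR, adjusted p = 0.00418).

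PHO8, the vacuolar alkaline phosphatase, had 6.13, 13.4 and 6.09 scaled labelled reads with IAA and 15.8, 27.4 and 17.7 with DMSO in RDY73. The groups did not overlap, and the change of −1.18 ± 0.42 passed (edgeR, adjusted p = 0.00668), although not without DMSO library B (−0.94, adjusted p = 0.0532). It was 0.52 under relative scaling (edgeR, adjusted p = 0.363).

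PHO84, the high-affinity proton-coupled phosphate transporter, had 234, 297 and 314 scaled labelled reads with IAA and 347, 469 and 431 with DMSO in RDY73. Its lowest DMSO library stood above its highest IAA library, a change of −0.56 ± 0.14 (edgeR, adjusted p = 0.000213), whereas under relative scaling PHO84 was higher by 1.16 (adjusted p = 1.6e-20). Of all tested genes 89.4% had a lower change in new RNA than PHO84. PHO89, the sodium-coupled transporter, had 0 labelled reads in all 6 RDY73 libraries with 4tU and was not tested.

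SPL2 encodes a small protein that holds back low-affinity phosphate uptake. It had 21.5, 38.5 and 51.3 scaled labelled reads with IAA and 61.0, 77.6 and 74.0 with DMSO in RDY73, a change of −0.91 ± 0.24 (edgeR, adjusted p = 0.000221) that became 0.79 under relative scaling (adjusted p = 0.00288). VTC1 and VTC3 are subunits of the vacuolar transporter chaperone complex, which makes polyphosphate. VTC1 had 39.8, 63.5 and 61.7 scaled labelled reads with IAA and 122, 131 and 107 with DMSO, again with no overlap. Its change was −1.11 ± 0.20 (edgeR, adjusted p = 1.7e-07) and became 0.60 under relative scaling (adjusted p = 0.00793). VTC3 had 57.2, 56.0 and 62.6 with IAA and 63.1, 117 and 67.7 with DMSO. The groups of VTC3 nearly touched and DMSO library B stood apart, and the change of −0.46 ± 0.21 (edgeR, adjusted p = 0.0376) was −0.16 without that library (adjusted p = 0.523), also missed the threshold without IAA library A (−0.44, adjusted p = 0.0635) or B (−0.43, adjusted p = 0.0892) and in a fit of these 2 groups alone (adjusted p = 0.0629), and was 1.26 under relative scaling (adjusted p = 4.99e-09).

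**Figure D2:**
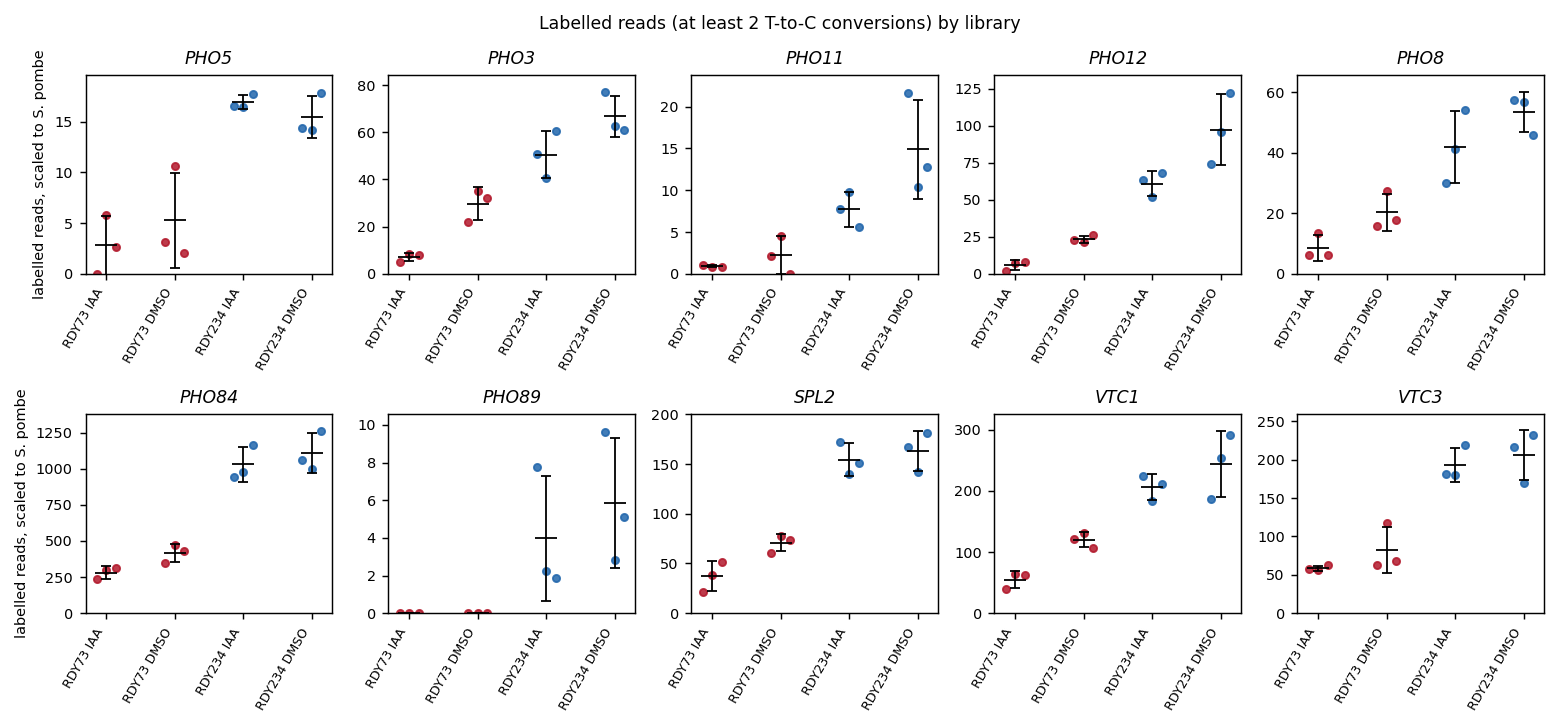
Labelled reads of each gene by library, scaled to labelled S. pombe reads. Points are libraries, bars are the mean ± SD of 3, red is RDY73 and blue is RDY234, and in RDY73 the IAA libraries of PHO3, PHO12 and VTC1 all lie under the DMSO libraries.

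The share of a gene's reads that were labelled does not depend on the spike-in. Over all S. cerevisiae reads this share was 2.44% ± 0.156 in RDY73 with IAA and 4.08% ± 0.313 with DMSO (SD, n = 3). PHO84 was labelled at 10.5% ± 0.351 with IAA and 12.6% ± 1.19 with DMSO, and the libraries of both groups did not overlap. PHO3 was labelled at 3.50% ± 0.610 with IAA and 7.003% ± 1.57 with DMSO, also without overlap. VTC1 was labelled at 3.15% ± 0.627 with IAA and 4.28% ± 0.557 with DMSO. SPL2, at 10.2% ± 1.86 with IAA and 11.2% ± 1.31 with DMSO, and VTC3, at 7.61% ± 0.469 with IAA and 6.64% ± 1.56 with DMSO, overlapped between the groups. In RDY234 the share over all reads was 6.90% ± 0.686 with IAA and 7.29% ± 0.122 with DMSO, and PHO84 was labelled at 18.6% ± 1.28 with IAA and 17.8% ± 0.512 with DMSO. PHO5 was labelled in RDY234 at 17.3% ± 1.35 with IAA and 11.7% ± 3.74 with DMSO. These shares rest on 17, 22 and 19 labelled reads with IAA and 12, 15 and 14 with DMSO. They did not overlap between the groups, while the scaled labelled reads of PHO5 did. The shares were not tested, and how many of all genes had such separate shares was not counted. In libraries without 4tU the mean share of the 10 genes was between 0 and 1.61%.

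Total RNA, which also holds RNA made before IAA was added, was lower with IAA in RDY73 for 9 of the 10 genes on the S. pombe scale and for 1 of the 10, PHO12, under relative scaling. Of all 6100 tested genes 77.9% were lower and 1.16% higher on the S. pombe scale, and 30.8% were lower and 29.6% higher under relative scaling. The median change of the 10 genes was −0.73 and that of all tested genes −1.24, and 9 of the 10 lay above it. Under relative scaling the median was 0.41 over the 10 genes and −0.10 over all tested genes, with PHO84, PHO8, VTC3, VTC1 and SPL2 higher.

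PHO12 showed the largest change of the list on the S. pombe scale, while under relative scaling PHO84 did. Its scaled total reads were 85.3, 122 and 106 in RDY73 with IAA, against 330, 372 and 277 with DMSO. Every IAA library lay under every DMSO library, and the change was −1.63 ± 0.16 (edgeR, adjusted p = 4.47e-12) and −0.48 under relative scaling (adjusted p = 0.00269). PHO3 had 177, 214 and 205 with IAA and 406, 457 and 364 with DMSO, a change of −1.04 ± 0.14 (edgeR, adjusted p = 4.19e-09) that was 0.12 under relative scaling (adjusted p = 0.336). PHO5 had 39.7, 79.8 and 55.8 with IAA and 137, 106 and 83.5 with DMSO. Its highest IAA library was just under its lowest DMSO library, and its change was −0.88 ± 0.24 (edgeR, adjusted p = 0.000744), or 0.26 under relative scaling (adjusted p = 0.359). PHO11, with 14 to 33 reads in each of these libraries before scaling, had 13.9, 25.5 and 16.1 scaled reads with IAA and 31.5, 49.1 and 19.4 with DMSO. These overlapped, and the change of −0.78 ± 0.33 (edgeR, adjusted p = 0.0283) was not called without DMSO library A (−0.79, adjusted p = 0.0526) or B (−0.44, adjusted p = 0.262) or IAA library A (−0.62, adjusted p = 0.11) or C (−0.68, adjusted p = 0.0898), and was 0.37 under relative scaling.

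PHO84 total RNA lay closest to its DMSO level among the 10 genes on the S. pombe scale, and farthest from it under relative scaling. It had 2240, 2843 and 2819 scaled total reads with IAA and 2969, 3479 and 2986 with DMSO in RDY73. The highest IAA library lay under the lowest DMSO library by a small margin, and the change of −0.25 ± 0.12 did not pass (edgeR, adjusted p = 0.0585). It did pass by DESeq2 (adjusted p = 0.0405), without multimapped reads (adjusted p = 0.0414), without DMSO library C (−0.29, adjusted p = 0.0456) and without IAA library B (−0.31, adjusted p = 0.0399), and under relative scaling it was 0.90 (adjusted p = 3.2e-10). PHO89 had 43.6, 68.8 and 49.9 with IAA and 65.0, 112 and 90.3 with DMSO. Its groups overlapped in 1 library each, at −0.69 ± 0.22 (edgeR, adjusted p = 0.00391) and 0.45 under relative scaling (adjusted p = 0.0671). None of the 184 PHO89 reads with IAA and 232 with DMSO was labelled. The window lies antisense to PCA1, and whether these reads come from PHO89 mRNA was not tested.

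PHO8 had 152, 168 and 173 scaled total reads with IAA and 241, 238 and 206 with DMSO, a change of −0.47 ± 0.14 (edgeR, adjusted p = 0.00262) and 0.68 under relative scaling (adjusted p = 6.86e-07). SPL2 had 257, 367 and 425 with IAA and 562, 598 and 665 with DMSO, a change of −0.80 ± 0.14 (edgeR, adjusted p = 2.63e-06) and 0.34 under relative scaling (adjusted p = 0.0347). Neither gene had an IAA library within the range of its DMSO libraries. VTC1 had 1592, 1814 and 1731 with IAA and 2940, 2602 and 2556 with DMSO, a change of −0.66 ± 0.12 (edgeR, adjusted p = 6.38e-06) and 0.49 under relative scaling (adjusted p = 0.000293). VTC3, its partner in the complex, had 691, 801 and 793 with IAA and 1108, 1362 and 1048 with DMSO, a change of −0.62 ± 0.13 (edgeR, adjusted p = 5.19e-05) and 0.54 under relative scaling (adjusted p = 1.27e-05). The VTC subunits thus had nearly the same total change, while their new RNA differed more, at −1.11 for VTC1 and −0.46 for VTC3. That difference between the genes was not tested.

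**Figure D3:**
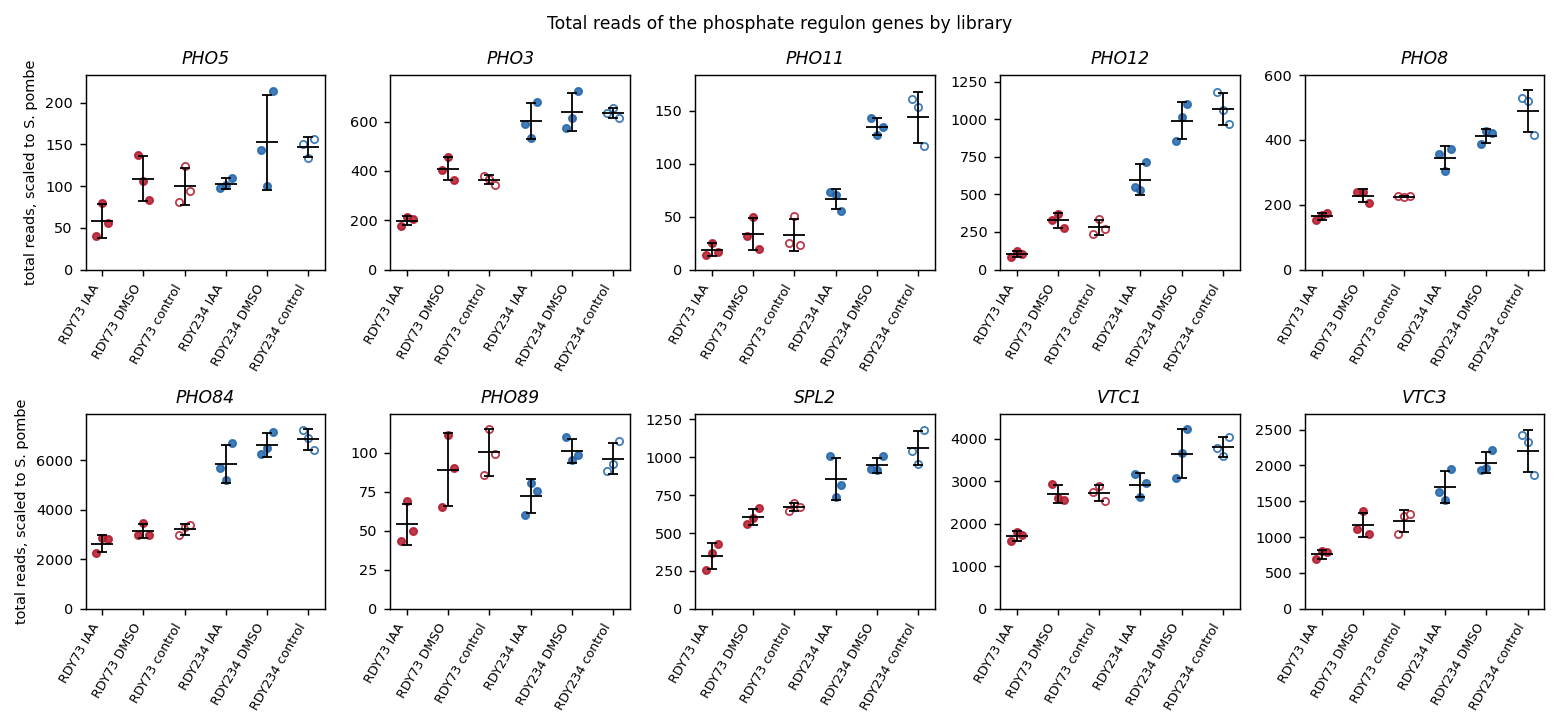
Total reads of each gene by library, scaled to S. pombe reads. Points are libraries (open for controls), bars are the mean ± SD of 3, red is RDY73 and blue is RDY234, and PHO12 is lowest in the RDY73 IAA libraries (85.3 to 122) and highest in the RDY234 libraries without IAA (856 to 1180).

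In RDY234, which keeps an untagged BDF1, IAA left new RNA of the regulon with no called change: 0 of the 9 tested genes passed, and 2 of all 5195 tested genes did (0.0385%). Under relative scaling 0 of the 9 passed as well. DESeq2 called 1 of the 5195 and 0 of the 9. At an unadjusted p under 0.05, edgeR gave 245 of the 5195 and 1 of the 9. PHO84 had 946, 977 and 1167 scaled labelled reads with IAA and 1064, 998 and 1263 with DMSO, overlapping groups with a change of −0.10 ± 0.13 (edgeR, adjusted p = 0.977). VTC1 had 225, 183 and 211 with IAA and 186, 254 and 292 with DMSO, VTC3 had 181, 180 and 219 with IAA and 216, 169 and 232 with DMSO, and SPL2 had 172, 140 and 151 with IAA and 167, 142 and 181 with DMSO. These too overlapped. PHO3 had 50.6, 40.5 and 60.6 with IAA and 76.8, 62.4 and 61.1 with DMSO, at −0.41 ± 0.27 (edgeR, adjusted p = 0.977). PHO12 had 63.3, 51.8 and 68.0 with IAA and 74.4, 95.5 and 122 with DMSO, at −0.68 ± 0.24 (edgeR, unadjusted p = 0.00574, adjusted p = 0.842). In both PHO3 and PHO12 the IAA libraries lay just under the DMSO libraries. PHO8 had 30.2, 41.3 and 54.0 with IAA and 57.6, 56.8 and 45.8 with DMSO, which overlapped. PHO11 had 8, 13 and 6 labelled reads with IAA and 18, 11 and 10 with DMSO before scaling, and PHO89 had 8, 3 and 2 with IAA and 8, 3 and 4 with DMSO.

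Total RNA in RDY234 held the one called change of the list with IAA in that strain, in PHO12. It had 546, 530 and 717 scaled total reads with IAA and 856, 1013 and 1099 with DMSO. All IAA libraries were under all DMSO libraries, and the change of −0.73 ± 0.14 passed (edgeR, adjusted p = 0.0201) and kept its direction under relative scaling (−0.61, adjusted p = 0.00804). PHO12 was the only gene called lower of the 6100 tested (0.0164%), and 1 other gene was called higher (0.0328% in either direction). Without multiple-test adjustment 482 of the 6100 genes, and 6 of the 10, had a p under 0.05 by edgeR, and DESeq2 called 2 of the 6100 and 1 of the 10. The PHO12 call was not kept without DMSO library B (−0.71, adjusted p = 0.16) or C (−0.65, adjusted p = 0.25) or IAA library A (−0.67, adjusted p = 0.374) or B (−0.65, adjusted p = 0.136). PHO11 did not pass. It had 73.5, 70.0 and 55.5 scaled total reads with IAA and 143, 127 and 135 with DMSO, well apart, at −1.02 ± 0.24 (edgeR, unadjusted p = 9.52e-05, adjusted p = 0.194) and −0.88 under relative scaling (adjusted p = 0.0923). Of all tested genes 0.0984% had a lower change than PHO11 and 0.443% a lower change than PHO12. With the reads of PHO11 and PHO12 summed into 1 feature, a choice made after seeing the data, the change was −0.76 (edgeR, adjusted p = 0.0117).

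The other 8 genes did not pass in RDY234 total RNA on either scale. PHO5 had 98.0, 101 and 110 with IAA and 143, 100 and 214 with DMSO, at −0.56 ± 0.22 (edgeR, adjusted p = 0.581). PHO89 had 60.2, 80.9 and 75.8 with IAA and 110, 95.1 and 98.6 with DMSO, at −0.48 ± 0.21 (adjusted p = 0.609). VTC1 had 3173, 2617 and 2959 with IAA and 3064, 3653 and 4232 with DMSO, at −0.32 ± 0.12 (adjusted p = 0.581). PHO89 was the only one of these 3 genes whose groups did not overlap. PHO84 had 5687, 5197 and 6703 with IAA and 6240, 6478 and 7149 with DMSO, at −0.18 ± 0.12 (edgeR, adjusted p = 0.657). PHO8 had 356, 305 and 374 with IAA and 388, 429 and 423 with DMSO, apart by a small margin, and VTC3 had 1625, 1517 and 1951 with IAA and 1938, 1970 and 2213 with DMSO, which overlapped. The values of PHO8, VTC3, SPL2 and PHO3 lay between −0.27 and −0.09. Of the 10 genes 9 were below the all-gene median of −0.13, and the median of the 10 was −0.29.

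**Figure D4:**
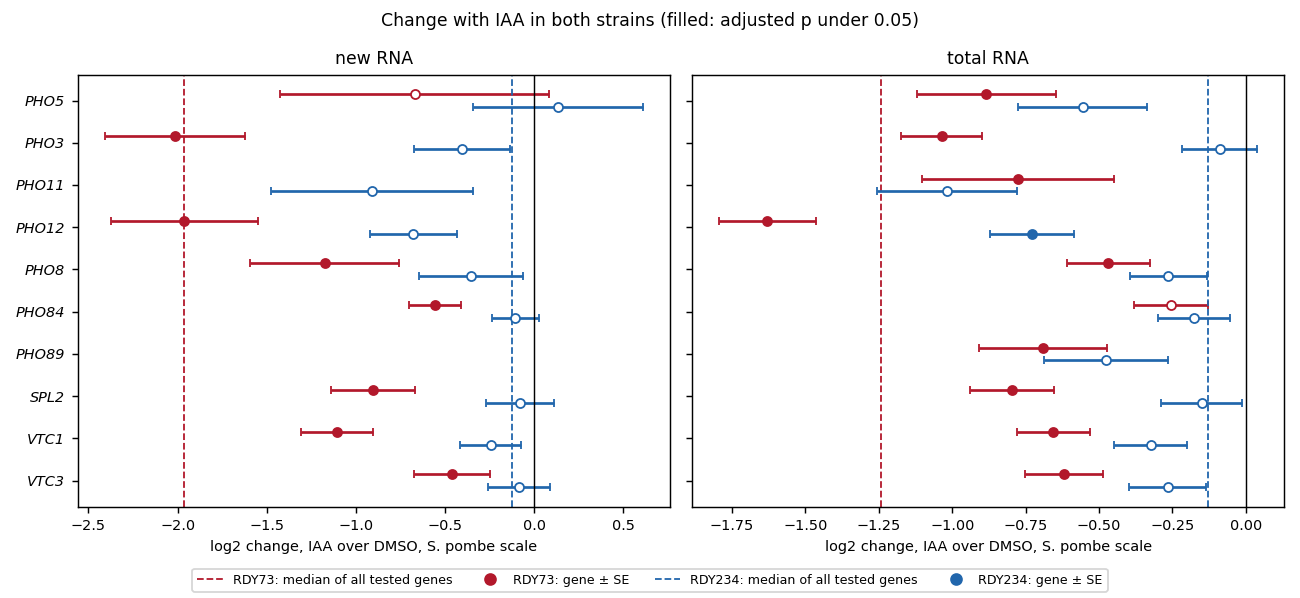
Log2 change ± SE with IAA over DMSO on the S. pombe scale, for new RNA (left) and total RNA (right), red for RDY73 and blue for RDY234. Filled points passed at an adjusted p under 0.05, dashed lines are the medians of all tested genes, and nearly all RDY73 points lie right of the RDY73 median of −1.97 (new) or −1.24 (total). PHO89 in new RNA and PHO11 in new RNA of RDY73 are not drawn because they had too few labelled reads. PHO5 in new RNA of RDY73 is drawn, though its labelled reads were too few to tell the groups apart.

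Whether IAA acted differently in the strains was tested as the effect in RDY73 minus the effect in RDY234. In new RNA 5 of the 9 genes that passed the filter had a lower effect in RDY73, against 74.2% of all tested genes, and these 5 are among the 7 with enough reads in both strains. Under relative scaling 0 had a lower and 4 a higher effect, against 6.68% and 11.6% of all tested genes. PHO3 differed by −1.61 ± 0.48 (edgeR, adjusted p = 0.00187) and VTC1 by −0.86 ± 0.26 (adjusted p = 0.00226). PHO12 differed by −1.29 ± 0.48 (edgeR, adjusted p = 0.0127) and SPL2 by −0.83 ± 0.30 (adjusted p = 0.0101), and both missed the threshold without RDY73 IAA library A, at −0.93 (adjusted p = 0.0781) and −0.57 (adjusted p = 0.0812). PHO84 differed by −0.45 ± 0.20 (edgeR, adjusted p = 0.0309). Its call was lost with TMM factors over S. pombe genes (−0.38, adjusted p = 0.0653), with at least 1 conversion (−0.34, adjusted p = 0.0899), without RDY73 IAA library A (−0.34), RDY73 DMSO library B (−0.36) or C (−0.42), RDY234 IAA library C (−0.35) and RDY234 DMSO library A (−0.42) or B (−0.38), and it was 1.13 under relative scaling. PHO8 (−0.82 ± 0.51, edgeR, adjusted p = 0.13) and VTC3 (−0.37 ± 0.28, adjusted p = 0.204) did not pass, and PHO8 did without RDY73 IAA library B (−1.32, adjusted p = 0.0344). Under relative scaling PHO3 had −0.04, PHO12 0.26, SPL2 0.74, VTC1 0.72, PHO8 0.76 and VTC3 1.22. For PHO5 and PHO11 no difference is given, because they had too few labelled reads in RDY73.

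In total RNA 3 of the 10 genes had a lower effect of IAA in RDY73 than in RDY234, against 69.4% of all tested genes. They were PHO3 (−0.95 ± 0.19, edgeR, adjusted p = 2.14e-05), PHO12 (−0.90 ± 0.22, adjusted p = 0.000295) and SPL2 (−0.65 ± 0.20, adjusted p = 0.00374), which under relative scaling were 0.08, 0.13 and 0.36. In RDY234 PHO3 had 591, 534 and 679 scaled total reads with IAA and 576, 615 and 726 with DMSO, and SPL2 had 1007, 740 and 820 with IAA and 922, 918 and 1006 with DMSO, both overlapping. All 10 genes lay above the all-gene median of −1.10, and the median of the 10 was −0.33. VTC1 (−0.33 ± 0.18, edgeR, adjusted p = 0.0878) and VTC3 (−0.35 ± 0.19, adjusted p = 0.0899) missed the threshold and passed without RDY234 IAA library B, at −0.40 (adjusted p = 0.0384) and −0.43 (adjusted p = 0.0431). VTC1 passed also without RDY234 DMSO library C (−0.45, adjusted p = 0.0279) and without multimapped reads (−0.36, adjusted p = 0.044), and VTC3 without RDY73 DMSO library C (−0.43, adjusted p = 0.0476). PHO84 (−0.08 ± 0.18, edgeR, adjusted p = 0.706) and PHO11 (0.24 ± 0.41, adjusted p = 0.616) gave no called difference on the S. pombe scale. Under relative scaling 0 genes had a lower effect and 6 a higher one, against 20.9% and 23.1% of all tested genes. These were PHO11 (1.25, edgeR, adjusted p = 0.0108), PHO84 (0.95, adjusted p = 2.53e-07), PHO8 (0.82), PHO89 (0.79), VTC1 (0.69) and VTC3 (0.68).

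The strains also differed before IAA. In control cultures 9 of the 10 genes had lower total RNA in RDY73 than in RDY234 on the S. pombe scale, against 77.5% of all tested genes, and 4 of the 10 were lower and 1 higher under relative scaling, against 9.21% lower and 14.3% higher of all tested genes. The median of the 10 genes was −0.83 and that of all tested genes −0.68. PHO12 had 236, 335 and 271 scaled total reads in RDY73 and 1180, 1059 and 968 in RDY234. The strains were far apart, at −1.93 ± 0.15 (edgeR, adjusted p = 1.2e-13), and stayed so under relative scaling at −1.27 (adjusted p = 8.24e-10). PHO11 had 25.1, 50.3 and 22.9 in RDY73 and 161, 154 and 116 in RDY234, at −2.14 ± 0.26 (edgeR, adjusted p = 4.56e-09) and −1.47 under relative scaling (adjusted p = 2.38e-05). Only 0.279% of all tested genes were lower than PHO11 and 0.393% lower than PHO12 in this comparison.

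PHO8 had 226, 223 and 226 scaled total reads in RDY73 controls and 531, 521 and 415 in RDY234 controls, at −1.12 ± 0.13 (edgeR, adjusted p = 4.14e-09) and −0.45 under relative scaling (adjusted p = 0.000257). PHO84 had 2966, 3291 and 3399 in RDY73 and 7225, 6884 and 6407 in RDY234, at −1.09 ± 0.13 (edgeR, adjusted p = 2.12e-09) and −0.43 under relative scaling (adjusted p = 0.000271). Both genes were thus lower in RDY73 on either scale. VTC3 (−0.86 ± 0.13), PHO3 (−0.80 ± 0.13), SPL2 (−0.66 ± 0.14) and VTC1 (−0.48 ± 0.12) were lower on the S. pombe scale and did not pass under relative scaling, where they lay between −0.19 and 0.17. PHO3 had 381, 368 and 344 in RDY73 controls and 637, 657 and 616 in RDY234 controls, and SPL2 had 643, 697 and 670 in RDY73 and 1042, 957 and 1180 in RDY234. VTC1 had 2752, 2885 and 2527 in RDY73 and 3772, 3585 and 4047 in RDY234, and VTC3 had 1041, 1294 and 1322 in RDY73 and 2418, 2328 and 1870 in RDY234. The control libraries of the strains did not overlap in these 4 genes. On the S. pombe scale 77.5% of all tested genes were called lower in RDY73. How many of all genes were so separated was not counted. PHO5 had 81.4, 125 and 94.5 in RDY73 and 150, 134 and 157 in RDY234, at −0.56 ± 0.22 (edgeR, adjusted p = 0.0182). Its call was lost with TMM factors over S. pombe genes (−0.42, adjusted p = 0.0757) and without RDY73 control library A (−0.43, adjusted p = 0.107) or C (−0.52, adjusted p = 0.0523), and it was 0.09 under relative scaling. PHO89 did not pass on the S. pombe scale. It had 85.7, 115 and 99.5 in RDY73 and 88.2, 92.8 and 107 in RDY234, at 0.05 ± 0.20 (edgeR, adjusted p = 0.815), and was higher under relative scaling at 0.70 (adjusted p = 0.00761). Summed coverage of T positions by the PHO89 reads differed, at 5302 for 309 reads in RDY73 controls and 9374 for 294 in RDY234 controls.

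**Figure D5:**
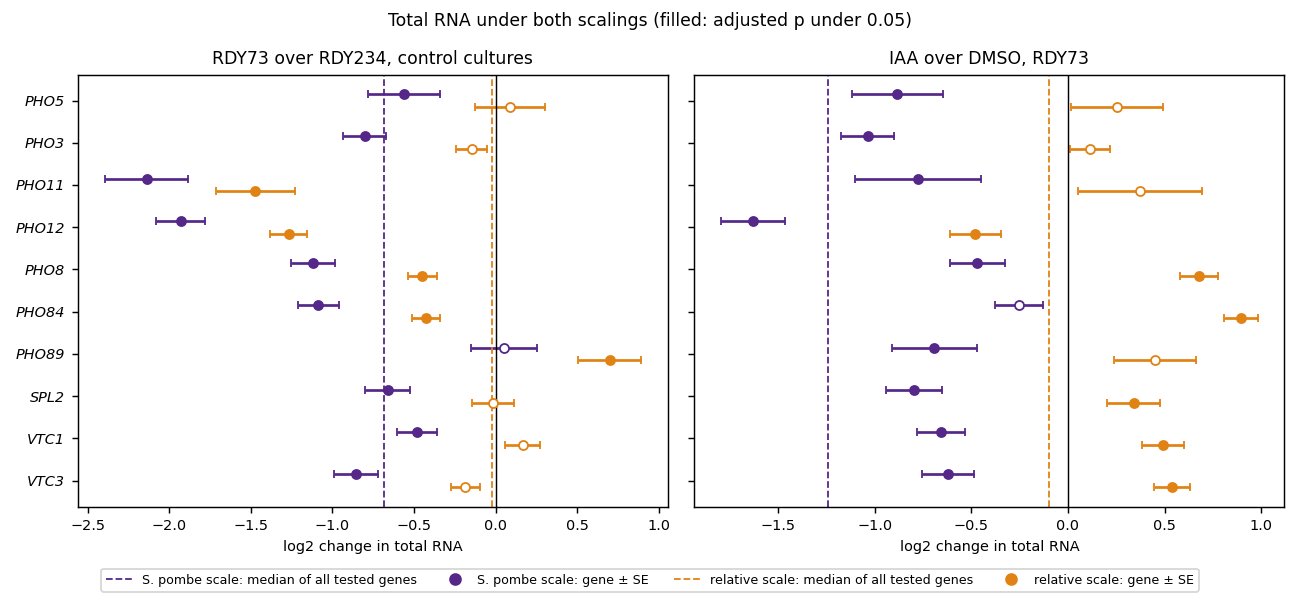
Log2 change ± SE in total RNA under S. pombe scaling (purple) and relative scaling (orange), for RDY73 over RDY234 in control cultures (left) and IAA over DMSO in RDY73 (right). Filled points passed at an adjusted p under 0.05 and dashed lines are the medians of all tested genes. PHO11 and PHO12 are lower in RDY73 on both scales (left), and with IAA (right) PHO12 is lower on both while PHO84 moves to 0.90 under relative scaling.

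New RNA with DMSO and 4tU gave the same order of strains. PHO12, PHO84, VTC3, SPL2, PHO3, PHO8 and VTC1 had at least 10 labelled reads in each of the 6 libraries compared, and all 7 were lower in RDY73 on the S. pombe scale, against 79.5% of all tested genes. The latter include genes with fewer reads in these libraries. In a fit of the compared groups alone, 4053 of 4783 tested genes were lower. The gap between strains depended on the measure of new RNA. With at least 1 conversion per read, 3432 of 5601 tested genes were lower, and the all-gene median was −0.70, against −1.13 with at least 2. Over all reads the labelled share with DMSO was 4.08% in RDY73 and 7.29% in RDY234. Whether the labelling itself differed between the strains was not tested. PHO5 and PHO11 passed the filter only through RDY234, where they were higher, so they are not counted here. PHO12 changed by −2.03 ± 0.29 (edgeR, adjusted p = 3.22e-11) and by −0.89 under relative scaling, where it was the one gene of the list called (adjusted p = 0.0217, against 2.95% of all tested genes called lower and 5.64% higher). PHO84 changed by −1.42 ± 0.14 (edgeR, adjusted p = 1.17e-21) and by −0.29 under relative scaling (adjusted p = 0.101). VTC3 (−1.34), SPL2 (−1.20), PHO3 (−1.18), PHO8 (−1.43) and VTC1 (−1.03) were lower on the S. pombe scale as well, and did not pass under relative scaling, where VTC3 was −0.22, SPL2 −0.071, PHO3 −0.049, PHO8 −0.31 and VTC1 0.10. PHO11 had 2, 3 and 0 labelled reads before scaling in RDY73 with DMSO and 18, 11 and 10 in RDY234 with DMSO, and PHO5 had 3, 7 and 2 in RDY73 and 12, 15 and 14 in RDY234. No change is given for this pair because the filter favoured a lower value in RDY73. The DMSO libraries here are those of the IAA comparisons too, so a low DMSO level in RDY73 enters both.

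DMSO cultures given the 4tU pulse showed no called change in the regulon against controls. The labels name DMSO for the first of these groups only, so DMSO and 4tU cannot be told apart here. Between DMSO cultures with 4tU and controls without it, 0 of the 10 genes passed in RDY73 and 0 in RDY234, where 0.656% and 0.574% of the 6100 tested genes did. The changes lay between −0.19 (PHO89) and 0.21 (PHO12) in RDY73 and between −0.24 (PHO8) and 0.07 (PHO89) in RDY234. By edgeR no gene of the list had an unadjusted p under 0.05 in either strain, the lowest being 0.0696 for PHO8 in RDY234, and DESeq2 called 0.

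Across all 6 groups, every RDY73 group averaged fewer scaled total reads than every RDY234 group for 8 of the 10 genes, all but PHO5 and PHO89. On this scale 77.5% of all tested genes were called lower in RDY73 controls than in RDY234 controls. How many of all genes kept this order over the 6 groups was not counted. PHO12 averaged 104 ± 18.5 scaled reads in RDY73 with IAA, 326 ± 47.9 with DMSO and 281 ± 50.2 in controls, and 598 ± 104 in RDY234 with IAA, 989 ± 123 with DMSO and 1069 ± 106 in controls (SD, n = 3). DMSO and control libraries of a strain overlapped and all other neighbours in that order were apart. PHO84 averaged 2634 ± 341 in RDY73 with IAA, 3145 ± 289 with DMSO and 3219 ± 226 in controls, and 5862 ± 768 in RDY234 with IAA, 6623 ± 471 with DMSO and 6839 ± 411 in controls. In RDY234 all 3 groups of PHO84 overlapped with their neighbours. PHO89 stood apart from this pattern, at 54.1 ± 13.1 in RDY73 with IAA, 89.0 ± 23.4 with DMSO and 100.1 ± 14.8 in controls, and 72.3 ± 10.8 in RDY234 with IAA, 101 ± 7.80 with DMSO and 96.1 ± 10.0 in controls, with every neighbour in its order overlapping. The PHO89 reads were not alike in all groups. Their summed coverage of T positions in RDY73 was 2232 for 184 reads with IAA, 3129 for 232 with DMSO and 5302 for 309 in controls. In RDY234 it was 4387 for 241 reads with IAA, 7750 for 252 with DMSO and 9374 for 294 in controls. The window lies antisense to PCA1 and strand use is unknown. Whether all these reads come from PHO89 mRNA was not tested. The RDY73 IAA group was the lowest of the 6 for each of the 10 genes on this scale. With IAA in RDY73, 77.9% of all tested genes were called lower than with DMSO, with a median change of −1.24.

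Over the 18 libraries, and on the relative scale (log2 CPM), the genes did not move as 1 block. PHO11 and PHO12 had a Pearson r of 0.839, and PHO84 had 0.886 with PHO8 and 0.860 with VTC3, whereas PHO84 with PHO12 had 0.0371 and PHO12 with PHO89 had −0.658. These are descriptions over libraries that share strain and treatment, so no p is given. The 5 genes outside the list most like PHO84 were WTM1 (0.955), HXT1 (0.943), VMA1 (0.935), SAM2 (0.933) and ILV3 (0.931), among which PHO8 would have ranked 28 and VTC3 54 of 6100. Those most like PHO5, whose total reads numbered 40 to 178 a library, were YMR075C-A (0.800), AMD1 (0.690), ATP16 (0.689), AAD10 (0.684) and HPA2 (0.679). Within the list, VTC1 (0.682) ranked 5 and PHO89 (0.605) ranked 47 of 6100 for PHO5, and PHO12 was lowest at −0.233. The tandem acid phosphatases PHO3 and PHO5 had an r of 0.295. PHO3 had 3.60 ± 0.887 reads for each PHO5 read in RDY73 with IAA, 3.88 ± 0.797 with DMSO and 3.76 ± 0.871 in controls (SD, n = 3, windows of equal length), so their ratio moved by less than its spread, and in RDY234 it was 5.83 ± 0.484 with IAA, 4.51 ± 1.43 with DMSO and 4.36 ± 0.493 in controls.

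The signalling genes above the regulon were measured in the same libraries. PHO4, the activator, had 3113, 4294 and 3462 scaled total reads in RDY73 with IAA and 2518, 3211 and 2425 with DMSO. It was higher by 0.42 ± 0.14 (edgeR, adjusted p = 0.00568) with overlapping groups, was 1.57 under relative scaling, and did not pass without IAA library B (0.28, adjusted p = 0.0869). Its new RNA did not pass on the S. pombe scale, at −0.09 ± 0.17 (edgeR, adjusted p = 0.636), and was higher by 1.62 under relative scaling (adjusted p = 1.56e-24). Its window overlaps YFR035C on the same strand. The other regulators were lower in total RNA on the S. pombe scale, with changes of −1.91 ± 0.32 for PHO80, the cyclin, −1.62 ± 0.19 for PHO85, the kinase, −1.31 ± 0.21 for PHO2, the partner of Pho4, and −0.61 ± 0.16 for PHO81, the inhibitor (edgeR, highest adjusted p = 0.000547). Under relative scaling PHO80 (−0.77, adjusted p = 0.0377) and PHO85 (−0.47, adjusted p = 0.0187) were still lower, PHO2 was −0.17 and PHO81 was higher at 0.54. In new RNA PHO80 had 2, 0 and 2 labelled reads with IAA and 10, 3 and 2 with DMSO before scaling, and PHO85 had 3, 2 and 1 with IAA and 8, 7 and 5 with DMSO. Both passed the filter only through RDY234, so no fold change is given. New RNA of PHO81 changed by −1.03 (adjusted p = 0.000992) and PHO2 by −1.67 (adjusted p = 0.000204), which missed the threshold without DMSO library C (−0.99, adjusted p = 0.0744), and under relative scaling PHO81 was 0.67 and PHO2 0.020.

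The wider pathway, 29 further genes, was counted by role. The roles are headings of the list, and whether each gene under them, PHO13 among them, responds to phosphate was not tested. With IAA in RDY73, 20 of the 26 that passed the filter were lower and 0 higher in new RNA on the S. pombe scale, against 83.9% and 0.385% of all tested genes. Under relative scaling 0 were lower and 5 higher, against 11.5% and 16.3% of all tested genes. Of the 26, 5 (DDP1, PHO80, PHO85, GDE1 and PIC2) passed the filter only through RDY234, and without them 16 of 21 were lower. By role these 16 were 4 of 5 signalling genes, 5 of 6 of low-affinity transport and transporter maturation (PHO87, a low-affinity transporter, −1.77, and −0.099 under relative scaling), 4 of 6 of polyphosphate synthesis and breakdown (PPX1, an exopolyphosphatase, −1.80, or −3.13 without IAA library C, and −0.12 under relative scaling), 2 of 3 other phosphate-responsive genes and 1 of 1 mitochondrial phosphate carrier (MIR1, −0.61, and 1.11 under relative scaling). DDP1, a diphosphoinositol polyphosphate phosphatase, had 2, 0 and 1 labelled reads with IAA and 5, 3 and 9 with DMSO, and GDE1, a glycerophosphocholine phosphodiesterase, had 1 in each IAA library and 6, 7 and 4 with DMSO. These reads are too few for a fold change to be given. The MIR1 call was lost without DMSO library B (−0.35), IAA library A (−0.49) or IAA library C (−0.56). In total RNA 21 of the 29 were lower and 1, PHO4, higher, against 77.9% and 1.16% of all tested genes, while under relative scaling 5 were lower and 11 higher, against 30.8% and 29.6%. By role 7 of 8 signalling genes (PHO80 lowest), 6 of 6 transport genes (PHO90, −1.45, and −0.32 under relative scaling), 5 of 6 polyphosphate genes (PPX1, −1.49 and −0.35), 3 of 7 other phosphate-responsive genes (PHO13, a phosphatase, −1.62 and −0.47) and 0 of 2 carriers were lower on the S. pombe scale. In RDY234, 0 of 26 changed with IAA in new RNA and 0 of 29 in total RNA, with an unadjusted p under 0.05 in 1 and 4 of them by edgeR and 0 calls by DESeq2. Between DMSO cultures with 4tU and controls 0 of 29 changed in either strain, with an unadjusted p under 0.05 in 1 in each by edgeR and 0 calls by DESeq2.

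Between the strains without IAA, 26 of the 29 were lower in RDY73 and 2 higher on the S. pombe scale, against 77.5% lower and 2.21% higher of all tested genes. Under relative scaling 6 were lower and 5 higher, against 9.21% and 14.3% of all tested genes. All 8 signalling genes, 6 transport genes and 6 polyphosphate genes were lower on the S. pombe scale, with 5 of 7 other phosphate-responsive genes and 1 of 2 carriers. The lowest by role were PHO81 (−0.99 ± 0.15), PHO86, which helps Pho84 leave the endoplasmic reticulum (−1.04 ± 0.13), VTC4, the catalytic subunit of the polyphosphate polymerase (−0.99 ± 0.13), and GIT1, a glycerophosphoinositol transporter (−1.46 ± 0.49). Under relative scaling these were PHO81 −0.33, PHO86 −0.37, VTC4 −0.33 and GIT1 −0.81, the last not called. PHO80 (−0.55), PHO2 (−0.50), PHO85 (−0.63) and PHO4 (−0.29) were also lower there, and under relative scaling they were 0.11, 0.16, 0.04 and 0.38. The calls of PHO4 (without RDY234 control library A −0.17, B −0.25, RDY73 control library A −0.23 or C −0.27), PHO80 (without RDY234 control library A −0.39 or C −0.54, RDY73 control library B −0.47 or C −0.52) and PHO2 (without RDY73 control library B −0.40) were each lost when 1 library was left out. The higher genes were PHM7 (0.78 ± 0.31, edgeR, adjusted p = 0.0215) and the mitochondrial carrier PIC2 (0.39 ± 0.17, adjusted p = 0.0358), which were 1.45 and 1.04 under relative scaling. PHM7 was 1.29 without RDY234 control library A and missed the threshold without RDY234 control library B (0.55) or C (0.62) or RDY73 control library B (0.65). PIC2 missed it without RDY234 control library A (0.40) or B (0.30) or RDY73 control library A (0.40) or C (0.32).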

How the data were processed

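Per the series design text, reads from 3′ mRNA-seq libraries of iodoacetamide-treated RNA went through fastp (0.23.2, per the submitters' processing notes), bbduk and SLAM-DUNK (0.4.3, per the file headers). The processing notes name builds R64 and ASM294v2. For the aligner settings, the treatment of multimapped reads, strand use and molecular identifiers, details were not given in the sources used here. Deposited by the authors were 72 tables of read counts, 4 a library (per species, 1 with a minimum of 1 T-to-C conversion per labelled read and 1 with a minimum of 2), and each deposited table also gives the coverage on T positions and the conversions there. The 10 genes, the pathway list and the tests were chosen with earlier results of these data known.

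Of 6465 windows, 6462 matched an R64 gene and 6459 ran exactly from the gene's start to 250 bases past its end. Strain and treatment labels gave 6 groups of 3 libraries. Counts were tested with edgeR 4.0.16 (R 4.3.3) with 1 mean per group, over the 12 libraries with 4tU for new RNA and all 18 for total RNA, with each library's sum of S. pombe reads (labelled or all) as its size. Genes needed at least 10 reads in at least 3 libraries, which left 5195 and 6100. The SE is the size of the log2 change divided by the square root of F. Replicate libraries share letters A to C between groups. Alternatives were relative scaling, TMM over S. pombe genes, DESeq2 1.42.0, no filter, the compared groups alone, a replicate block, each library left out, at least 1 conversion, labelled background subtracted, no multimapped reads and, added after seeing the data, PHO11 and PHO12 summed. All 10 genes are named. Of the pathway list, the called gene with the largest change per role and comparison and 5 regulators are named, and PIC2 and PHM7 because few were higher. Genes like PHO84 or PHO5 are the 5 with the highest Pearson r of log2 CPM (TMM, prior count 2). The scripts were tested on simulated data. Precision is limited by counts: PHO11 had 14 to 166 reads a library and PHO84 2258 to 7457. PCR copies cannot be told from separate molecules.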

Additional observations from a re-analysis of the deposited data

Results flagged for a closer look

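The effect of IAA differed between the strains, by the test of the difference itself, in 8 results, given as the effect in RDY73 minus that in RDY234 on the S. pombe scale (log2, edgeR). In new RNA these were PHO3 (−1.61), PHO12 (−1.29), VTC1 (−0.86), SPL2 (−0.83) and PHO84 (−0.45). In total RNA they were PHO3 (−0.95), PHO12 (−0.90) and SPL2 (−0.65). Of all tested genes, 74.2% in new RNA and 69.4% in total RNA had a lower effect in RDY73, and none of the 8 was called lower under relative scaling. There the new RNA differences of PHO84 (1.13, edgeR, adjusted p = 1.25e-10), SPL2 (0.74, adjusted p = 0.0480) and VTC1 (0.72, adjusted p = 0.0217) were called higher. Groups of 3 libraries were too small to look for single outlying libraries.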

How the results depend on the processing

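The direction of some changes depended on the scaling. Of 96 single-gene values of the list, 30 turned round under relative scaling and 51 kept direction and side of the threshold. A further 13 lost the call and 2 gained one. Counts of genes called were 0 lower and 4 higher under relative scaling for new RNA with IAA in RDY73 (7 and 0 on the S. pombe scale), 0 and 4 for its difference between strains (5 and 0), 1 lower for new RNA between strains (7, with PHO5 and PHO11 left out because they passed the filter only through RDY234), 1 and 5 for total RNA with IAA in RDY73 (9 and 0), 0 and 6 for its difference between strains (3 and 0), and 4 and 1 for total RNA between strains (9 and 0). Among the genes named, log2 changes that were called on at least 1 of the scales and turned round under relative scaling were, in new RNA with IAA in RDY73, PHO8 0.52, PHO84 1.16, SPL2 0.79, VTC1 0.60, VTC3 1.26, MIR1 1.11, PHO4 1.62, PHO2 0.020 and PHO81 0.67. In its difference between strains they were PHO12 0.26, PHO84 1.13, SPL2 0.74, VTC1 0.72 and VTC3 1.22, and between strains VTC1 0.10. In total RNA with IAA in RDY73 they were PHO5 0.26, PHO3 0.12, PHO11 0.37, PHO8 0.68, PHO84 0.90, PHO89 0.45, SPL2 0.34, VTC1 0.49, VTC3 0.54 and PHO81 0.54. In its difference between strains they were PHO3 0.080, PHO12 0.13, PHO8 0.82, PHO84 0.95, PHO89 0.79, SPL2 0.36, VTC1 0.69 and VTC3 0.68, and between strains PHO5 0.088, VTC1 0.17, PHO4 0.38, PHO2 0.16, PHO80 0.11 and PHO85 0.038. By construction, relative scaling moves all genes of a comparison together, and the all-gene median of total RNA with IAA in RDY73 was −0.10 under it and −1.24 on the S. pombe scale.

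Left out one at a time, the libraries gave 5 to 7 genes lower in new RNA with IAA in RDY73, 2 to 6 for its difference between strains (2 without RDY73 IAA library A), 7 in each fit of new RNA between strains (PHO5 and PHO11 left out as above), 8 to 10 in total RNA with IAA in RDY73, 0 to 1 in RDY234 (0 without DMSO library B or C or IAA library A or B), 3 to 5 for the difference (5 without RDY234 IAA library B) and 8 to 9 between strains. Of 690 single-gene values with a library left out, 659 kept direction and side of the threshold, 24 lost the call and 7 gained one. The same held for 95 of 96 with DESeq2, 94 of 96 with TMM over S. pombe genes, 96 of 96 without the filter, 84 of 85 in the compared groups alone, 32 of 36 with at least 1 conversion, 36 of 36 with background subtracted, 58 of 60 without multimapped reads and 10 of 10 with PHO11 and PHO12 summed. Libraries of the same letter did not deviate together (correlations between −0.093 and 0.153), so the letters only name libraries, and the fit with a replicate block changed no call of the 10 genes, with 7 lower in new RNA and 9 in total RNA with IAA in RDY73. Among other pathway genes, the count higher between strains (2) was 1 by DESeq2 and 0 without multimapped reads, and that higher in total RNA with IAA in RDY73 (1) was 2 with TMM over S. pombe genes. The causes were not tested. At this depth, differences in new RNA of PHO5, PHO11 and PHO89 in RDY73 were not detectable with at least 2 conversions.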
